A study of Mus musculus with 5 samples.

Results

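The genes described here are 10 transcription factors of the dental mesenchyme, namely Msx1, Msx2, Pax9, Barx1, Lhx6, Lhx8, Osr2, Runx2, Prrx1 and Twist1, out of 21938 protein-coding genes annotated on the mouse nuclear chromosomes. They were chosen by name, and each was examined over a window that spans its gene body and the 5 kb to either side, in GENCODE M21 coordinates on GRCm38. These windows held 12 of the 22757 H3K27me3 peaks of replicate 1 called against input, 12 of the 24881 peaks of the same library called against IgG, and 20 of the 33379 peaks of replicate 2 called against its own input. The chromatin came from molars of wildtype C57BL/6 mice at postnatal day 3, from which the epithelium was removed so that the mesenchyme was collected. All 5 libraries, 2 H3K27me3, 2 input and 1 IgG, share this genotype, strain, age and tissue, with no mutant or treated group among them, and the labels do not say whether they came from separate animals or from pools. An SD below is therefore the spread between 2 libraries, which may be technical, and no test between groups was possible.

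H3K27me3 is the trimethylated form of a lysine in the tail of histone H3. Polycomb repressive complex 2 places it through its methyltransferase Ezh2, and broad stretches of the mark typically lie over developmental regulators in cells where these are silent. The 10 genes are best known in the tooth as active factors of the mesenchyme that condenses around the tooth epithelium and later forms pulp, dentine and periodontal tissues. A peak list of a repressive mark holds no expression values, so the tissue label could not be checked by the level of any marker. Of 18 genes that mark epithelium, blood, endothelium or nerve, 5 had a peak in their windows in both replicates (27.8%, Wilson interval 12.5% to 50.9%), as did 15.7% of all protein-coding genes.

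The peaks themselves rest on few reads. After duplicate removal, 30369351 H3K27me3 tags remained in replicate 1 and 49947919 in replicate 2, and the weakest peaks of the lists correspond to 4 and 6 overlapping tags. At the 10 genes a peak had on average 4 to 4.42 tags in replicate 1 and 6 to 8.68 tags in replicate 2. The fold enrichment over input, a ratio to which the peak caller adds 1 above and below, ranged from 2.51 to 2.81 (median 2.60) in replicate 1 and from 2.36 to 3.33 (median 2.42) in replicate 2, while the medians of the whole lists were 2.63 and 2.45. Thus peaks at these genes were of ordinary strength for their lists. Of the 12 replicate 1 peaks, 7 (58.3%) lay at the lowest pileup of the list, where 44.5% of all its peaks lay, and of the 20 replicate 2 peaks 9 (45%) did, compared with 37.9%. Of the 12 IgG-called peaks 5 (41.7%) did, compared with 35.1%.

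A peak occurred in the windows of 7 of the 10 genes in replicate 1 and of 9 in replicate 2. Over all protein-coding genes the shares were 25.0% and 35.7%. Both replicates had a peak in the windows of 7 genes, Pax9, Barx1, Lhx6, Lhx8, Osr2, Runx2 and Twist1 (95% Wilson interval of the share 39.7% to 89.2%), whereas 15.7% of all protein-coding genes had one in both. Against input, Msx1 and Prrx1 had peaks in replicate 2 only, and Msx2 had no peak in any list, like 54.9% of all genes, which had none in either replicate. Called against IgG, replicate 1 also had a peak at 7 genes, the background being 25.9%, but Prrx1 entered and Lhx8 dropped out. The windows of the 10 genes had a median length of 24.1 kb, those of all genes 27.4 kb, and the part of window length in these shares was not tested. The peak numbers by gene show Pax9 highest in replicate 1 and Runx2 and Prrx1 highest in replicate 2.

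**Figure D1:**
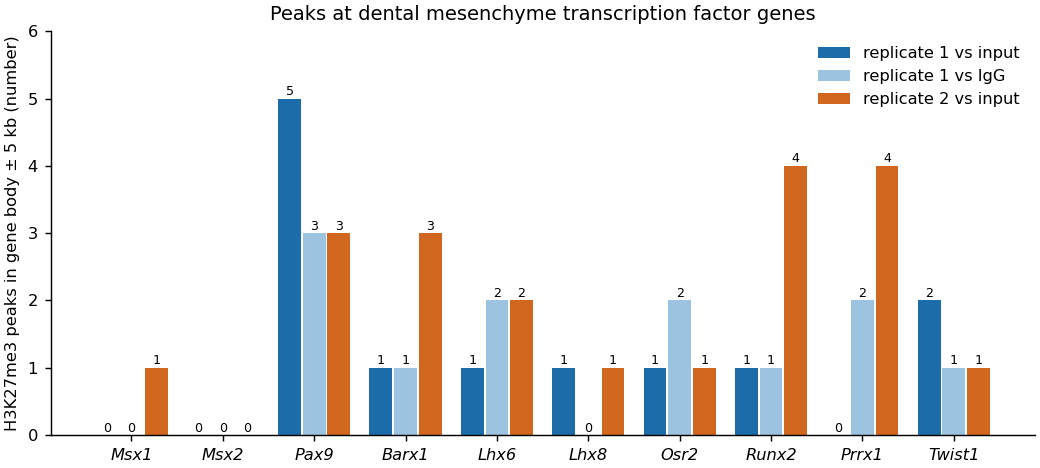
Number of H3K27me3 peaks in the window of each gene, its body and 5 kb to either side (vertical axis), in replicate 1 called against input, replicate 1 called against IgG and replicate 2 called against input, with the number above each bar. Pax9 has 5, 3 and 3 peaks, Msx2 has 0 in each list, and Prrx1 has 0 in replicate 1 against input and 4 in replicate 2.

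Promoters, the part of each window next to the gene start, were also examined. Within 1 kb of the gene 5′ end, replicate 1 had a peak at 2 genes (Pax9 and Twist1) and replicate 2 at 3 (Pax9, Barx1 and Prrx1), where 3.87% and 4.16% of all protein-coding genes had one. Pax9 was the 1 gene with a promoter peak in both replicates (10% of the genes, Wilson interval 1.79% to 40.4%), beside 1.04% of all protein-coding genes. Against IgG, the replicate 1 promoter peaks were at Lhx6, Osr2 and Twist1 (background 4.52%), so that with this control Pax9 was no longer called in both replicates. Most of the 10 promoters, all but that of Runx2, are CpG-rich, a property that was not used to choose the genes. The ratio of observed to expected CpG dinucleotides within 1 kb of the 5′ end had a median of 0.646, from 0.276 at Runx2 to 0.811 at Twist1, and 9 of the 10 lay above the median of all genes, 0.474. Among the 10969 protein-coding genes above that median, 1.61% had a promoter peak in both replicates and 19.2% a window peak in both, compared with 1 and 6 of the 9 genes here.

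Sequences are given for the input-called peaks that lay within 1 kb of a gene 5′ end or within 1 kb of a peak of the other replicate, outside UTRs. They are from GRCm38.p6, written 5′ to 3′ in the direction of the gene, with CpG dinucleotides in capitals. At Pax9 on chromosome 12 (plus strand) these are 2 replicate 1 peaks at chr12:56690607-56690727 and chr12:56691933-56692079, and the replicate 2 peak between them at chr12:56691373-56691520.
Pax9, replicate 1, upstream: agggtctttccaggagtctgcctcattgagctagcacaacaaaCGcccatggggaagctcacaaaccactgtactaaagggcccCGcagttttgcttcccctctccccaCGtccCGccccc
Pax9, replicate 2, upstream: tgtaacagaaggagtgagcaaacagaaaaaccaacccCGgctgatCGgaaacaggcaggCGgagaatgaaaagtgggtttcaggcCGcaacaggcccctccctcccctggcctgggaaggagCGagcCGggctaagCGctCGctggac
Pax9, replicate 1, intron: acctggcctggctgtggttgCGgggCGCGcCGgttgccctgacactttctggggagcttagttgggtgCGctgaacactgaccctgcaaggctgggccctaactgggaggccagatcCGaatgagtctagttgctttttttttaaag

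At Barx1 on chromosome 13 (plus strand) they are a pair of downstream peaks, chr13:48669626-48669730 in replicate 1 and chr13:48669783-48669933 in replicate 2, and a replicate 2 peak upstream of the 5′ end at chr13:48662558-48662703.
Barx1, replicate 2, upstream: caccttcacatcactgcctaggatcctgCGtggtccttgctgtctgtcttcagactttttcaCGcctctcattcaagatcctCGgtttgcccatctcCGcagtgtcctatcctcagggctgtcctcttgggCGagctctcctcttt
Barx1, replicate 1, downstream: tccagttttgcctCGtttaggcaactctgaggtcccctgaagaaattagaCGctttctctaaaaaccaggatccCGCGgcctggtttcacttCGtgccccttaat
Barx1, replicate 2, downstream: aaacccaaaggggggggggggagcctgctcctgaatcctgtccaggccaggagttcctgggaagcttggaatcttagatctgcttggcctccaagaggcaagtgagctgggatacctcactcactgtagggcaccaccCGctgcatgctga

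Peaks in the windows of the 10 genes held more CpG than the whole lists, with a median of 3.02 CpG dinucleotides per 100 bases in replicate 1 and 1.88 in replicate 2, and of 0.73 and 0.704 in the lists. A CpG was missing from 3 of the 12 replicate 1 peaks (25%) and from 39.3% of all replicate 1 peaks. Of these 12 peaks, 5 lay at Pax9. The lists cover the whole genome, and no CpG value is given for peaks in the windows of other genes. The part of position near genes in this difference was therefore not tested.

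Pax9, a paired-box factor without which tooth development stops at the bud stage, held the most replicate 1 peaks. Replicate 1 had 5 peaks covering 2.31% of its window and replicate 2 had 3 covering 1.65%, a mean of 1.98% ± 0.467 (SD, n = 2), and the IgG-called list had 3 peaks covering 1.45%. Its mean was higher than that of 97.9% of protein-coding genes. The peaks gathered around the 5′ end in both replicates but at different bases. Replicate 1 peaks lay 3.18 to 3.49 kb and 1.04 to 1.16 kb upstream, then 166 to 312 bases and about 12.7 and 16.4 kb into the gene. The replicate 2 peaks lay 247 to 394 bases upstream, in an intron and over an exon. Within the window the nearest ends of peaks from the 2 replicates were 413 bases apart. Just outside it they came closer. A replicate 1 peak at chr12:56686197-56686393, also called against IgG, and a replicate 2 peak at chr12:56685988-56686125 were 72 bases apart. They lay 5.37 and 5.64 kb upstream. Merging peaks within 5 kb of one another gave a stretch of 5.88 kb with 4 peaks in replicate 1, the peak outside the window included. In replicate 2 it gave a stretch of 5.9 kb with 3 peaks. At this gene the stretches shared bases although the peaks did not. Of the window peaks, 2 in replicate 1 and 1 in replicate 2 also lie over Gm15524, an antisense gene whose span crosses the Pax9 5′ end, so these peaks cannot be assigned to either gene. The solute carrier gene Slc25a21 also reaches into the window from the other strand.

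Barx1, a homeobox factor that marks the molar region of the early jaw mesenchyme, had the highest mean coverage, 2.26%, with an SD of 2.1 over 2 replicates that is almost as large. A single replicate 1 peak covered 0.777% of the window and 3 replicate 2 peaks covered 3.75%. The pair shown above, 6.63 to 6.93 kb from the 5′ end and downstream of the gene, was the closest approach of the replicates in any of the 10 windows, with 53 bases between the peaks. The replicate 1 member of the pair was also called against IgG with the same ends. The other replicate 2 peaks lay 295 to 440 bases and 3.97 to 4.18 kb upstream, 5.29 kb or more from the nearest replicate 1 peak.

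Msx1 and Msx2 are homeobox factors that respond to BMP signals in the tooth, and Msx1 is needed for the bud to progress. Msx1 had no replicate 1 peak in its window with either control and 1 in replicate 2, 3.21 to 3.32 kb upstream with 6 tags, which covered 0.794% (mean 0.397% ± 0.562, n = 2). Just past the window edge the picture differed. Between 5 and 10 kb from the gene, replicate 1 had 3 peaks, replicate 1 against IgG 3 and replicate 2 had 1. The downstream one, at chr5:37814765-37814939 in replicate 1 (fold enrichment 3.26, 6.55 tags) and chr5:37814481-37814773 in replicate 2 (2.71, 6.95 tags), shared 9 bases between the replicates and was called against IgG too. It was the only overlap of the replicates within 10 kb of any of the 10 genes. The sequences, on the minus strand of chromosome 5, which is that of the gene, hold few CpG.
Msx1, replicate 1, downstream: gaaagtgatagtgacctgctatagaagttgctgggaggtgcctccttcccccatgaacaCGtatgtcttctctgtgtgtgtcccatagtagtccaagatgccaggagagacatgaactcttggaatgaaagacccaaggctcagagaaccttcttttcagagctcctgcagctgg
Msx1, replicate 2, downstream: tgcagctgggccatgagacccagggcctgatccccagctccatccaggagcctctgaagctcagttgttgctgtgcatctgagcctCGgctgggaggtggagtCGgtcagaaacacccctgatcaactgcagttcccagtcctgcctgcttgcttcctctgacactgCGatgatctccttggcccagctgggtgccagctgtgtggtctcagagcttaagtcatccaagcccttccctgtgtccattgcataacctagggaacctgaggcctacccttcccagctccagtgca

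Msx2, which acts in tooth mesenchyme and enamel-forming epithelium, was free of peaks over its whole neighbourhood. The nearest peak was 161 kb from the 5′ end in replicate 1, 261 kb against IgG and 67.2 kb in replicate 2. Its promoter was as CpG-rich (observed to expected ratio 0.66) as that of Msx1 (0.648).

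Lhx6 and Lhx8 are LIM homeobox factors that act redundantly in molar initiation. Lhx6 had 1 replicate 1 peak in an intron covering 0.43% of its window and 2 replicate 2 peaks, one intronic and one over an exon with UTR sequence, covering 1.16% (mean 0.795% ± 0.516, n = 2). The replicate 1 peak was 8.42 kb from the nearer of the replicate 2 peaks. Against IgG there were 2 other peaks, one of which began at the 5′ end itself with 5 tags, and neither overlapped the input-called peak of the same library. Lhx8 had 1 peak in each replicate, of 0.524% coverage from 2.84 kb upstream in replicate 1 and of 0.207% in an intron from 3.09 kb downstream of the 5′ end in replicate 2 (mean 0.365% ± 0.224, n = 2). The replicate 2 peak lay within 1 kb of another annotated Lhx8 transcript start, though not of the gene 5′ end. The replicate 1 peak also lies over the noncoding gene AI606473, and no peak was called in the Lhx8 window against IgG. The windows also hold Morn5 and Gm27953 (Lhx6).

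Osr2, a zinc finger factor that restricts tooth formation to a single row, had similar coverage in both replicates, 0.5% and 0.587% (mean 0.543% ± 0.0616, n = 2). In replicate 1 it was an intronic peak, also called against IgG with a fold enrichment of 2.89, and in replicate 2 a peak over an exon with UTR sequence 4.32 kb away. Thus equal coverage did not mean equal position. A further IgG-called peak lay 895 to 940 bases upstream. The lincRNA gene BC048602 reaches into the window.

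Twist1, a basic helix-loop-helix factor of neural crest mesenchyme, gave the same result in a sharper form. Peaks covered 160 bases, 1.32% of its window, in each replicate (SD 0, n = 2), yet no base was shared. Replicate 1 had a peak over an exon, 279 to 368 bases from the 5′ end, and one downstream, and replicate 2 had one further downstream, 1.85 kb from the nearest replicate 1 peak. The exon peak had a fold enrichment of 2.51 with input as control, above only 1.58% of the list, and was called against IgG as well.

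Runx2, the factor that osteoblasts and odontoblasts need, spans the largest window, 329 kb. It had 1 replicate 1 peak of 46 bases, 1 IgG-called peak elsewhere and 4 replicate 2 peaks, all intronic, and a coverage of 0.143% ± 0.182 (SD, n = 2). None lay within 1 kb of any of its 11 annotated transcript starts. One replicate 2 peak at chr17:44652812-44652883 reached a fold enrichment of 3.33 with 8.68 tags, higher than 99.8% of its list, and was the only peak of 3 or higher among the 10 windows. The nearest replicate 1 peak called against input was 105 kb from it. Antisense genes Runx2os1, Runx2os2 and Runx2os3, n-R5s27 and part of Supt3 share the window, and no peak fell on them.

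Prrx1, a paired-related homeobox factor of limb and craniofacial mesenchyme, had a peak from replicate 1 only with IgG as the control. Replicate 1 had no peak against input and replicate 2 had 4, covering 0.958% (mean 0.479% ± 0.677, n = 2). One of these was in the promoter, 699 to 890 bases upstream at chr1:163314409-163314600, and another, 1.55 to 1.82 kb into the gene, had 7.5 tags. Against IgG replicate 1 had 2 peaks, 1 of them also over Gm37644, at neither of these places. Gm20471 and Gm26523 lie in the window as well. The nearest input-called peak of replicate 1 was 102 kb or more from each of the 4. The promoter peak, on the minus strand, reads as follows.
Prrx1, replicate 2, upstream: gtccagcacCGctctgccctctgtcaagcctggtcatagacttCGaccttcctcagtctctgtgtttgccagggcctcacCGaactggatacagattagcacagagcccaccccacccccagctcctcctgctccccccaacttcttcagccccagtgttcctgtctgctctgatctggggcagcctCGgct

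**Figure D2:**
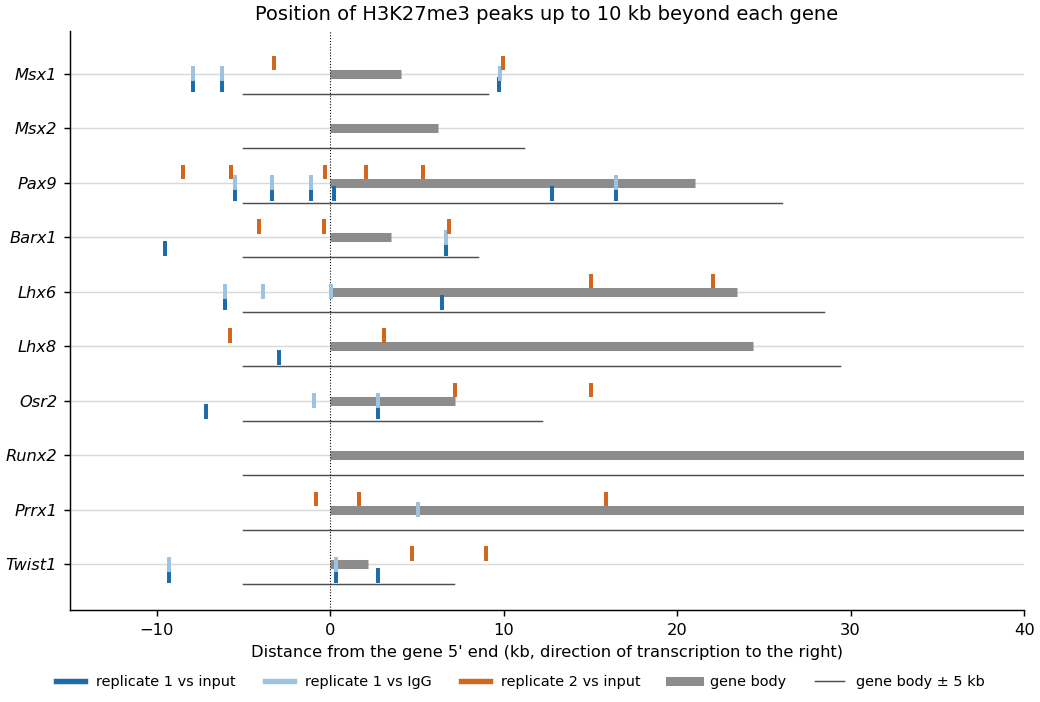
Position of the peaks of the 3 lists, drawn as ticks at the middle of each peak, by distance from the gene 5′ end in kb with transcription to the right. Grey bars are gene bodies and thin lines the windows that reach 5 kb further. Peaks up to 10 kb beyond each gene are drawn as far as the axis reaches. Light and dark blue ticks (replicate 1, IgG and input) often stand together, while orange ticks (replicate 2) stand beside them. All Runx2 peaks lie past the right edge, as do the Prrx1 peaks 59.7 kb (replicate 2) and 66.5 kb (IgG) into the gene.

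Across the 12 replicate 1 peaks of the 10 windows, 0 were overlapped by a replicate 2 peak (Wilson interval 0% to 24.2%), and across the 20 replicate 2 peaks 0 were overlapped by a replicate 1 peak (0% to 16.1%). A count of 0 allows shares of up to 25% and 15%, and in the whole lists 2.85% and 1.90% were overlapped, so that at this number of peaks a difference from the lists was not detectable. Some peaks lay near one another, those within 1 kb all at Pax9 and Barx1. A replicate 2 peak was within 1 kb of 3 of the 12 replicate 1 peaks (25%, interval 8.89% to 53.2%). That interval includes the 12.7% of the list and the 16% of its peaks in the windows of protein-coding genes. Within 5 kb it was 8 of 12 (66.7%, interval 39.1% to 86.2%), compared with 31.8% of the list. A share for gene windows is not given at 5 kb. In the other direction it was 2 of the 20 replicate 2 peaks within 1 kb (10%, interval 2.79% to 30.1%), near the 10.2% in gene windows and 7.46% in the list. Within 5 kb it was 7 (35%, interval 18.1% to 56.7%, in the list 16.8%). The control mattered as it did elsewhere: 6 of the 12 input-called peaks of replicate 1 (50%) were overlapped by an IgG-called peak of the same library, and 51.0% of the list. Conversely, 6 of the 12 IgG-called peaks overlapped an input-called one, and 46.6% of that list.

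The paralogues of the 10 genes, 8 relatives not chosen as factors of the dental mesenchyme, served as a comparison. A window peak in both replicates was present at 6 of 8 (Msx3, Pax1, Barx2, Osr1, Runx1 and Runx3), and Prrx2 and Twist2 had one in replicate 2 only. A peak in both replicates thus occurred at relatives of the 10 genes too, and at 15.7% of all protein-coding genes. Paralogue windows were longer, with a median of 56.4 kb, compared with 24.1 kb for the 10 genes and 27.4 kb for all genes. The part of window length in these shares was not tested. Coverage of the paralogue was higher at Msx3 (6.30% ± 3.09), Pax1 (4.30% ± 0.79) and Osr1 (1.39% ± 0.923) than at Msx1, Pax9 and Osr2. Of these the replicate values did not overlap between each paralogue and its relative, and Msx3 and Pax1 had promoter peaks in both replicates. By contrast, Barx2 (0.898% ± 0.184) and Twist2 (0.358% ± 0.506) had a lower mean than Barx1 and Twist1, with values that overlapped those of Barx1 but not of Twist1. Runx1 (0.266% ± 0.00512) and Runx3 (0.665% ± 0.515) had a higher mean than Runx2, the Runx1 values lying within the range of Runx2, and Prrx2 (0.508% ± 0.719) was close to Prrx1 with a large spread (SD, n = 2 throughout). Of 32 replicate 1 peaks at the paralogues, 14 of them at Pax1, 4 (12.5%) were overlapped by a replicate 2 peak, compared with 2.85% of the list. At the 10 genes it was 0 of 12, with an interval reaching 24.2%. That interval includes 12.5%, so a difference from the paralogues was not detectable.

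**Figure D3:**
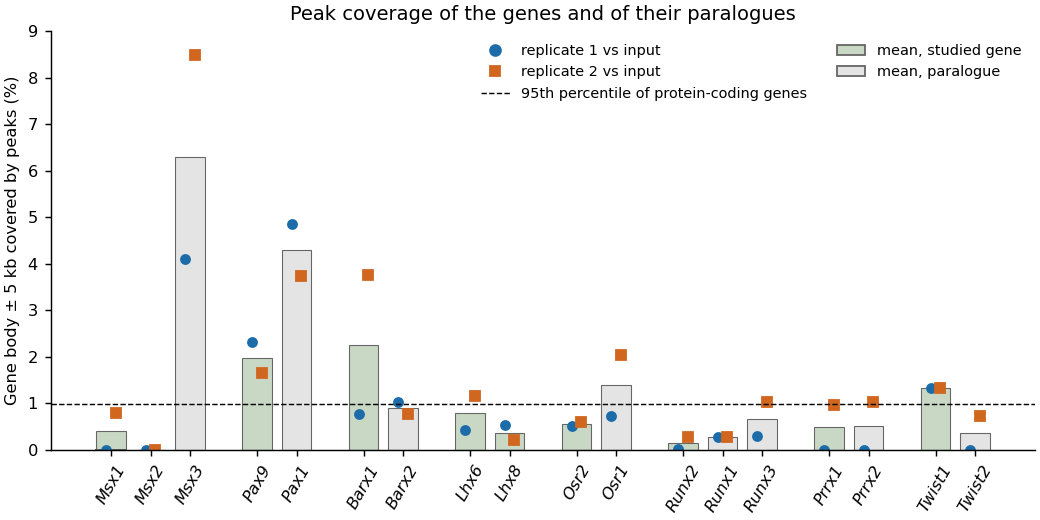
Percent of window bases under peaks for each of the 10 genes (green bars) beside its paralogues (grey bars); bars are the mean of 2 replicates, circles replicate 1 and squares replicate 2, both against input, and the dashed line is the 95th percentile of all protein-coding genes, 0.978%. Barx1, Pax9 and Twist1 have means above that line, and Msx3 and Pax1 have the highest means.

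Ordered by mean coverage, the genes ran Barx1, Pax9, Twist1, Lhx6, Osr2, Prrx1, Msx1, Lhx8, Runx2 and Msx2. Neighbours in this order differed by more than the SD of either only between Pax9 and Twist1 and between Twist1 and Lhx6, where the replicate values did not overlap. Both steps involve Twist1, whose SD of 0 came from peaks at different places and is no measure of precision. With IgG as the control of replicate 1 the second of these steps was lost, since Twist1 coverage in replicate 1 was then 0.609% and Lhx6 coverage 0.78%, and the ranges of the 2 genes overlapped. The remaining neighbours cannot be ordered, with the exception that both Runx2 values lay above the 0 of Msx2. The median over the 10 genes was 0.511%, beside 0 for all protein-coding genes, 0.782% for the paralogues and 11.0% for the 39 Hox genes, the body-axis patterning genes that are a textbook target of the mark. Hox genes had a window peak in both replicates at 39 of 39 and a promoter peak in both at 24. The highest coverage among these was at Hoxb2 (21.1% ± 2.13), Hoxb13 (18.2% ± 1.29), Hoxd12 (16.2% ± 3.82) and Hoxb3 (16% ± 0.045), while the highest of the 10 genes was 2.26%. Ribosomal protein genes, most of which every cell expresses, had a window peak in both replicates at 0 of 80 (Wilson interval 0% to 4.58%). The 10 genes thus lay between these lists. In coverage they were nearer to the ribosomal end, and in the share with a window peak in both replicates nearer to the Hox end. Median window length was 24.1 kb for the 10 genes, 13.5 kb for Hox genes and 13.3 kb for ribosomal protein genes. The part of window length in these shares was not tested.

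Peak density gave the same picture along the locus. In the 20 kb around the 5′ end, the 10 genes had 1 peak per gene in the upstream 10 kb and 0.7 in the downstream 10 kb in replicate 1, and 0.8 and 0.9 in replicate 2. The 10 kb bins from 20 to 100 kb away held at most 0.4 per gene. Flanks were denser than gene bodies, at 5 and 1.46 peaks per 100 kb in replicate 1 and 7 and 2.71 in replicate 2, and the zone from 5 to 10 kb held 8 and 6 per 100 kb. Leaving out Runx2, whose body makes up most of the sequence, the gene bodies held 3.74 and 5.6 per 100 kb. Over all protein-coding genes the flanks held 1.61 and 1.51, the bodies 0.935 and 1.36, and the zone from 5 to 10 kb 1.31 and 1.37.

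**Figure D4:**
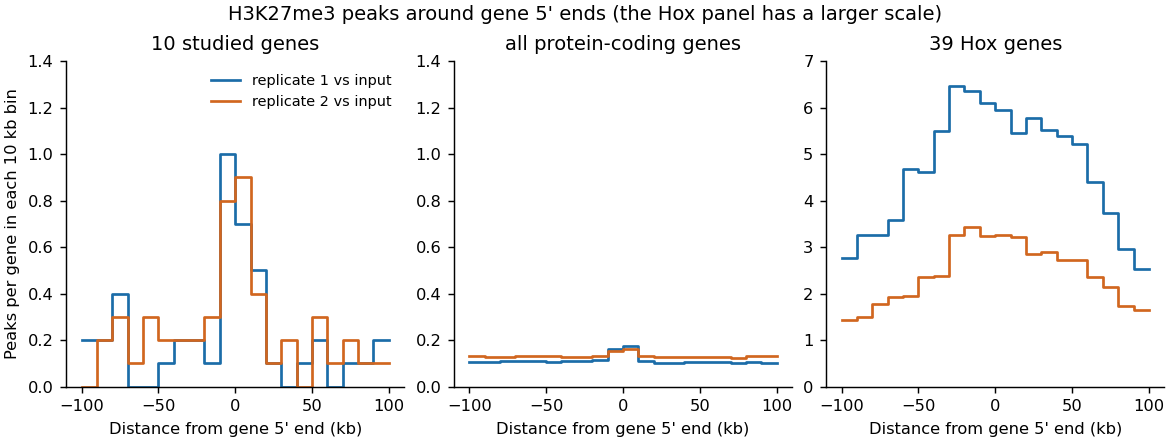
Peaks per gene (vertical axis) in 10 kb bins by distance from the gene 5′ end (horizontal axis, kb), for the 10 genes, all protein-coding genes and the 39 Hox genes, with replicate 1 in blue and replicate 2 in orange, both against input. The 10 genes reach 1 peak per gene next to the 5′ end and fall to 0.4 or fewer from 20 kb on. The Hox panel, on a larger scale, declines outward as well. Its highest bin holds 6.46 peaks per gene (replicate 1) or 3.44 (replicate 2), and its lowest 2.54 or 1.44. A peak can count for more than 1 Hox gene: in the gene windows, 291 replicate 1 peaks gave 448 counts.

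**Figure D5:**
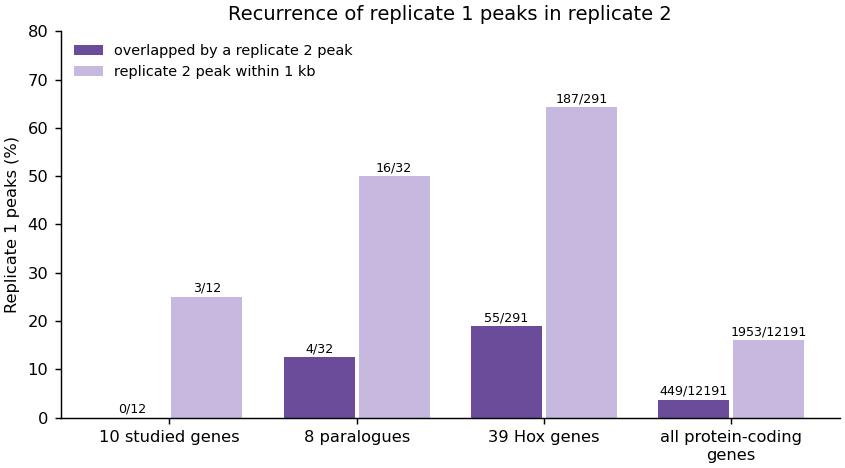
Percent of replicate 1 peaks overlapped by a replicate 2 peak (dark bars) or with one within 1 kb (light bars) in the windows of the 10 genes, their 8 paralogues, the 39 Hox genes and all protein-coding genes, with the counts above the bars. At the 10 genes 0 of 12 peaks were overlapped and 3 of 12 had a neighbour within 1 kb, compared with 55 and 187 of 291 at Hox genes.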

How the data were processed

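H3K27me3 ChIP-seq libraries of mouse molar mesenchyme were aligned by the authors to GRCm38 with BWA, sorted with SAMtools, and broad peaks were called for each library alone with MACS2 2.1.1 at p-values under 0.005. The submitters' processing notes also name Partek. Per the file headers, duplicates beyond 1 tag at a position were dropped and libraries of a pair were scaled to the smaller. The modelled fragment length was 46 bp for replicate 1 and 71 bp for replicate 2, shorter than the tags of 49 and 74 bp. Its effect on the width of the peaks was not tested. The deposited pileup is a signal, the tag coverage of a peak after scaling. Dividing it by the scale gave the tags printed, which need not be whole. The deposited fold enrichment is a ratio of pileup to background. A pseudocount of 1 on both terms gave it to within 1% for 84.8%, 89.1% and 80.8% of peaks at the lowest pileup of the 3 lists. The deposited significance values are −log10 p-values and −log10 q-values. Depth and tag length differ between the replicates and cannot be told apart from the replicate.

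Peaks were compared with GENCODE M21 genes (GRCm38) by an overlap of at least 1 base, in Python 3.11.15 with pandas 2.3.3 and numpy 2.4.6, and sequences were read from the RefSeq GRCm38.p6 genome with pysam 0.24.0. The interval steps were tested on simulated lists. With 2 libraries of 1 group there was no contrast to test, so counts and medians are given beside all protein-coding genes. Wilson intervals and limits of 3 counts cover no more than counting error, with peaks or genes taken as independent. All 10 genes, every paralogue and every annotated gene overlapping a window are named. Of the other lists, up to 4 genes with a promoter peak in both replicates are named by mean coverage. The genes and lists were chosen with earlier results of these data known. No peak in the windows recurred, so the sequences shown, those near Msx1 included, were chosen after the values were seen, as was the 5 kb distance between replicates. The study's methods say that mice were kept on a mixed background, while the labels give C57BL/6. Alternatives were a fold enrichment or q-value cutoff, the control, leaving out a replicate, an equal number of peaks, and other windows, promoters and overlaps.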

Additional observations from a re-analysis of the deposited data

How the results depend on the processing

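With a fold enrichment of 3 or higher, or with a q-value of 0.05 or lower, 0 genes had a window peak in both replicates. Likewise 0 had a promoter peak in both, and the median coverage was 0. No replicate 1 peak was left whose overlap could be counted. Each description above thus rests on the authors' own cutoff. The fold cutoff removed most peaks at all genes too. In the windows of all protein-coding genes 1125 of 12191 replicate 1 peaks and 253 of 16435 replicate 2 peaks reached it. Called against IgG, 0 genes had a promoter peak in both replicates. Gene bodies without flanks left 4 genes with a peak in both replicates, flanks of 10 kb raised the median coverage to 1.03%, and promoters of 5 kb on each side gave 3 genes. For these alternatives, the cutoffs and the IgG control included, no share of all protein-coding genes is given beside the counts. The counts are therefore no result about the 10 genes. Counting a replicate 2 peak within 1 kb gave 25% of the replicate 1 peaks and within 5 kb, a distance added after seeing the data, 66.7%. Leaving out 1 replicate gave 7 to 9 genes with a window peak, 2 to 3 with a promoter peak and a median coverage of 0.465% to 0.876%. In all, 16 of 31 alternative values stayed within 1.5 times the count, the spread or the interval of the value reported, among them an equal number of peaks in both replicates, any transcript start and a stricter overlap. No paired analysis was possible because no result comes from a test and each replicate is 1 list. With 4 to 8.68 tags behind a peak at the 10 genes, the absence of a peak says that none was called at this depth.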

Other observations

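Other genes of the dental mesenchyme were described by counts. Of 32 signals, receptors and transducers of the BMP, FGF, WNT and hedgehog pathways, 10 had a window peak in both replicates (31.2%, Wilson interval 18.0% to 48.6%). A promoter peak in both occurred at 0 of them. All protein-coding genes gave 15.7% and 1.04%. Windows of the signal list were longer, with a median of 71.4 kb compared with 27.4 kb for all genes. The part of window length in its share was not tested. Of 16 matrix and mineralisation genes, which odontoblasts and osteoblasts express, 2 had a window peak in both replicates (12.5%, interval 3.5% to 36%), near the share of all genes, and 0 a promoter peak in both. Promoters of the signal list had a median observed to expected CpG ratio of 0.67 and those of the matrix list of 0.24, with the 10 transcription factors at 0.646.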
